A study of Mus musculus with 4 samples.

Results

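Sox transcription factors were examined in insulin reporter-positive cells made from mouse gallbladder cells. The members are the 10 genes Sox2, Sox4, Sox5, Sox6, Sox7, Sox9, Sox11, Sox13, Sox17 and Sox18, taken by symbol from a table of 20377 genes, and all 10 had a row. The table holds 10 further Sox genes, which are described after the members. The cells came from MIP-GFP mice (strain B6.Cg-Tg(Ins1-EGFP)1Hara/J, of C57BL/6 background) aged 8 weeks, in which a green fluorescent protein is driven by an Ins1 promoter. Expanded primary gallbladder cells received Pdx1, Ngn3 (Neurog3), Mafa and PAX6 together with compounds the labels do not name, over 10 days, and reporter-positive cells were isolated by fluorescence-activated sorting. All 4 libraries, replicates 1 to 4, belong to a single group called rGBC2. No Sox gene was among the delivered factors. The labels do not say whether the libraries came from separate animals or cultures, so p-values measure only the spread between these libraries, which may be technical.

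Sox proteins bind DNA through an HMG box, a domain they share with the sex-determining factor Sry, and they are sorted into lettered groups by the sequence of that box. Group C factors (Sox4, Sox11) act in progenitors and in early neuronal and endocrine differentiation. Group E includes Sox9, a regulator of bile duct cells and pancreatic progenitors, and group F includes Sox17, which is needed for endoderm and for gallbladder development. Group D factors (Sox5, Sox6, Sox13) have no activation domain of their own and work with partners, and group B includes the pluripotency and foregut factor Sox2.

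The stretch that encodes the HMG box is what these genes have in common, and it is shown here for both members of group C, which hold the most abundant member, and for 1 member each of groups D, E and B. The 21 bases of Sox4 that are most alike in the best matches of the 20 Sox transcripts of the table read ATGAANGCNTTNATGGTNTGG, with N where the transcripts differ, and lie within the box. This motif was searched on the sense strand of 19993 mouse transcripts of GENCODE M21 (GRCm38) matched by RefSeq identifier. By its construction it can be in each Sox transcript, and the 20 transcripts that held it (0.1%) were those of the 10 members and the 10 other Sox genes, with no other gene among them. Each sequence below has 237 bases, 5′ to 3′, and starts 18 bases before the motif. Capitals mark the motif in Sox4, and in the other sequences they mark bases that differ from Sox4.
Sox4: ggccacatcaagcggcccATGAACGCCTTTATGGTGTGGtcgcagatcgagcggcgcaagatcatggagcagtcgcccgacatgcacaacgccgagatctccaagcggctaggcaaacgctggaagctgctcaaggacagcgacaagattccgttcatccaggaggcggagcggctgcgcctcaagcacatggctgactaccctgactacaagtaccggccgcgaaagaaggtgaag
Sox11: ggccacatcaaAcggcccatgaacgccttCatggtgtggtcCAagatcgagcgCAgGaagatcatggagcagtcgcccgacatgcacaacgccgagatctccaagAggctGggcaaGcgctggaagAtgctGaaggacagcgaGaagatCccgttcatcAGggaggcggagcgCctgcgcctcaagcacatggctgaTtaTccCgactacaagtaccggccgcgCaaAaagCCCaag
Sox13: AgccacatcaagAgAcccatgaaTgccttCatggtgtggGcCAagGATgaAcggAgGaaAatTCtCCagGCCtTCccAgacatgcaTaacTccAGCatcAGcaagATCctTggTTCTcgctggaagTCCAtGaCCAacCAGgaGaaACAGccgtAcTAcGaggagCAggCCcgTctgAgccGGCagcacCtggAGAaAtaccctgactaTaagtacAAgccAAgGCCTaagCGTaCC
Sox9: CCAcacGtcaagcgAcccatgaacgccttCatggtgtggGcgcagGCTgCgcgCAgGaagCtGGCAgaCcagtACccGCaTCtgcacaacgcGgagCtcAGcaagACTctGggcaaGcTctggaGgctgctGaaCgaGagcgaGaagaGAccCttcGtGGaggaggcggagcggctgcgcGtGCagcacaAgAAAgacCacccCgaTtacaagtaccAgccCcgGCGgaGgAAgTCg
Sox2: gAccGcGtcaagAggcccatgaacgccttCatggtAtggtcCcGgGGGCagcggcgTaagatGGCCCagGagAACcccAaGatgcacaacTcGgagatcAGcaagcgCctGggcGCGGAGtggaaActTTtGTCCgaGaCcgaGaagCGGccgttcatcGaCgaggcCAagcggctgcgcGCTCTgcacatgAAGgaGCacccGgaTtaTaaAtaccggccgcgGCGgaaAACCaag
Sox11 differed from Sox4 at 25 of the 237 bases, whereas Sox9 differed at 67, Sox2 at 74 and Sox13 at 88. Members of 1 group were 76.8% to 89.5% identical over this stretch (7 pairs), and members of different groups 53.6% to 75.1% (38 pairs). The longest identical run between the whole transcripts of any 2 members was 48 bases, between Sox4 and Sox11. A read shorter than that run could match both genes. Nothing in the labels or in the table says how long the reads were or how reads with several matches were treated.

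**Figure D1:**
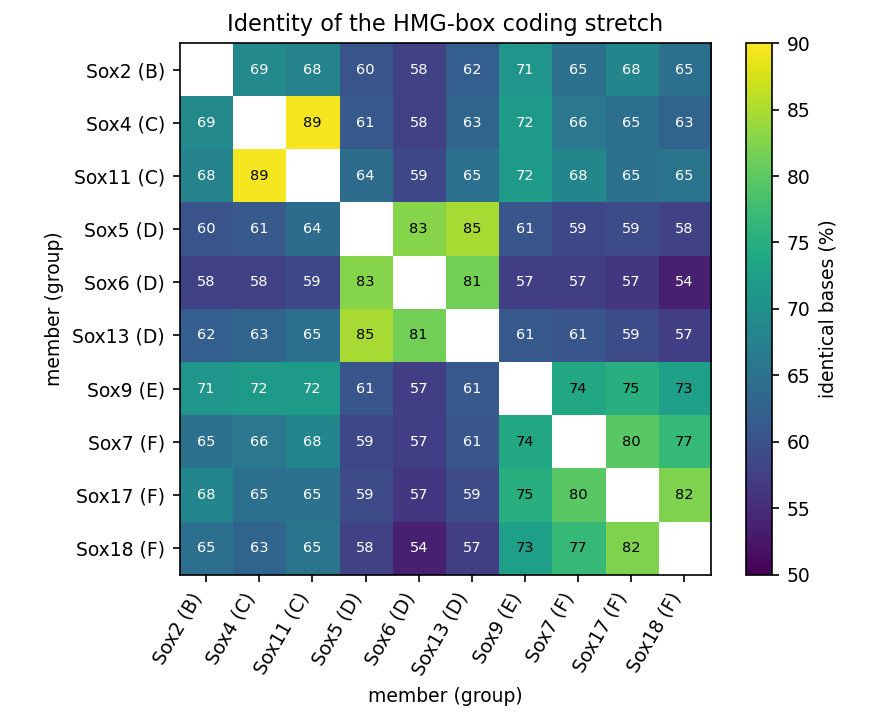
Percent of identical bases between members over the 237-base stretch that encodes the HMG box, with the group letter after each gene on both axes. The brightest blocks are the pairs within groups C, D and F, with 89.5% for Sox4 and Sox11.

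RPKM, the unit of all levels here, divides reads by transcript length and library depth, which puts genes on one scale. How far levels compare between genes depends also on the counting, which is not known here. The estimated depth was 21900000 to 32800000 reads per library. Ins2 stood at 1091 to 4240 RPKM and Ins1 at 107 to 523 RPKM, in cells sorted on an Ins1 reporter. Replicates 1 and 2 held reads of the Y-linked genes Eif2s3y and Ddx3y, and in replicates 3 and 4 both genes were listed at 0. Replicates 3 and 4 were nearer to each other than any other pair, with a median chi-square per gene of 2.45 against 18.8 to 48.3 for the other pairs. Sampling noise alone would give 0.455. The 4 were analysed as separate libraries, but these values cannot show that replicates 3 and 4 are independent, and an SD or p over n = 4 would be too small if they share a source. Gapdh, which cells use generally, was at 0 to 0.2 RPKM, so some levels in the table may not reflect the RNA present, and a gene at 0 is described only as listed at 0.

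By their calls against 1 RPKM the members fell into 3 tiers. Sox4, Sox17, Sox13 and Sox11 lay above 1 RPKM, Sox9, Sox5 and Sox6 passed in neither direction, and Sox18, Sox7 and Sox2 lay below. The tiers follow from the chosen reference level and need not mark gaps in level. The test was limma's moderated test of log2(RPKM + 1) against 1 RPKM, two-sided, called at a Benjamini-Hochberg adjusted p under 0.05 across 16919 genes, which leaves out those at 0 throughout. The 4 of 10 members above 1 RPKM compare with 65.0% of all genes tested, and the 3 of 10 below with 26.1%. The members' median was 0.776 RPKM, and that of all genes tested was 6.99 RPKM. The median SD between libraries on the log2(RPKM + 1) scale was 0.21 for the members and 0.26 for all genes tested. The added 1 shrinks this SD for low genes, so these medians do not compare steadiness. In bulk samples, fewer cells that express a gene and less RNA per cell cannot be told apart.

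**Figure D2:**
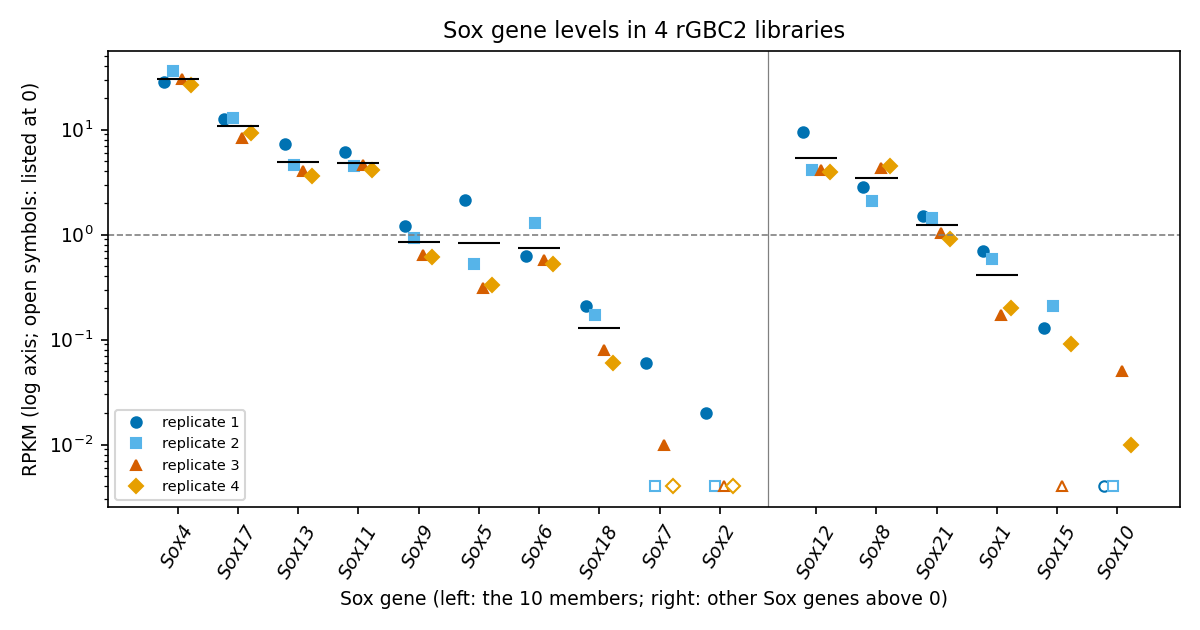
RPKM of each Sox gene on a log axis in the 4 rGBC2 libraries, one symbol per library, with the 10 members on the left and the other Sox genes above 0 on the right. Lines are means over libraries where no library is at 0, open symbols are values listed at 0, and the dashed line is 1 RPKM; Sox4 lies highest in every library, at 26.6 to 35.9 RPKM.

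Of group C, Sox4 was the most abundant Sox transcript in every library. Sox4, which takes part in islet endocrine differentiation as well as in neuronal and tumour progenitors, was at 28.4, 35.9, 30.7 and 26.6 RPKM in replicates 1 to 4. The 4 values lay within 1.35-fold of each other, the narrowest range of the members not listed at 0 in any library. The mean was 30.4 ± 4.0 RPKM (SD, n = 4), above 1 RPKM by 3.96 ± 0.10 (SE) on the log2(RPKM + 1) scale (limma, adjusted p = 4.57e-07), and Sox4 ranked between percentiles 77.2 and 82.5 of the genes tested in each library. Its row covers the single exon on chromosome 13 from 29042599 to 29045551 (mm9, minus strand), 2953 bases, while the GENCODE M21 transcript with the same identifier has 4795 bases. Reads from the remainder would not be in the deposited value.

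Sox11, the closest relative of Sox4 among the members, was at 6.14, 4.48, 4.63 and 4.11 RPKM in replicates 1 to 4. It is known from embryonic neurons and is also a single-exon gene, on chromosome 12 from 28019133 to 28027583 (mm9, minus strand). Replicate 1 was highest and the other 3 lay close together. The mean of 4.84 ± 0.894 RPKM (SD, n = 4) was above 1 RPKM by 1.53 ± 0.17 (SE) on the log2(RPKM + 1) scale (limma, adjusted p = 0.000249). Sox4 exceeded Sox11 by 4.62-fold in replicate 1 and by 6.48-fold to 8.00-fold in the other 3 libraries.

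Of group F, Sox17 was transcribed and Sox7 and Sox18 were near 0. Sox17, the gallbladder and endoderm factor, was at 12.7, 12.9, 8.39 and 9.38 RPKM in replicates 1 to 4, second among the members in every library. Replicates 1 and 2 were both higher than replicates 3 and 4. The mean of 10.8 ± 2.29 RPKM (SD, n = 4) was above 1 RPKM by 2.54 ± 0.16 (SE) on the log2(RPKM + 1) scale (limma, adjusted p = 1.70e-05). Sox17 lies on chromosome 1 from 4481009 to 4486494 (mm9, minus strand) and has 5 exons in GENCODE M21.

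Sox18, which acts in blood and lymphatic endothelium, was at 0.21, 0.17, 0.08 and 0.06 RPKM in replicates 1 to 4. Its mean of 0.13 ± 0.0716 RPKM (SD, n = 4) was below 1 RPKM (limma, adjusted p = 5.65e-06) and corresponds to an estimated 3.19 to 8.25 reads per library, so its order between libraries rests on few reads. Sox17 exceeded Sox18 by 60.4-fold to 156-fold in the 4 libraries. Sox7, the third endothelial member of the group, was at 0.06 RPKM in replicate 1 (an estimated 4.8 reads), at 0.01 RPKM in replicate 3, and listed at 0 in replicates 2 and 4. It lay below 1 RPKM (limma, adjusted p = 3.26e-07), and 3 reads would have given 0.0277 to 0.0415 RPKM, a floor that covers counting error only.

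Of group D, Sox13 was above 1 RPKM, and Sox5 and Sox6 passed in neither direction. Sox13, which encodes an islet autoantigen and also acts in T-cell development, was at 7.27, 4.57, 4.07 and 3.6 RPKM in replicates 1 to 4. It was highest in replicate 1 and lowest in replicate 4. Its mean of 4.88 ± 1.64 RPKM (SD, n = 4) was above 1 RPKM by 1.52 ± 0.20 (SE) on the log2(RPKM + 1) scale (limma, adjusted p = 0.000647). The gene has 14 exons and lies on chromosome 1 from 135278877 to 135320789 (mm9, minus strand).

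Sox5, a partner of Sox9 in cartilage, was at 2.15 RPKM in replicate 1 and at 0.53, 0.31 and 0.33 RPKM in replicates 2 to 4. Replicate 1 alone lay above 1 RPKM and stood 6.94-fold above the lowest library. The mean of 0.83 ± 0.886 RPKM (SD, n = 4) did not differ from 1 RPKM by the test (limma, adjusted p = 0.367). Without replicate 1 the mean was 0.39 RPKM and Sox5 lay below 1 RPKM (limma, adjusted p = 0.00138), so its place rests on that library. The row spans 376730 bases of chromosome 6, from 143781349 to 144158078 (mm9, minus strand).

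Sox6, which also acts in cartilage and in red blood cell formation, was at 0.62, 1.3, 0.57 and 0.52 RPKM in replicates 1 to 4. Replicate 2 was the only library above 1 RPKM, so the high library was not the one in which Sox5 was high. The mean was 0.753 ± 0.367 RPKM (SD, n = 4; limma, adjusted p = 0.132). Without replicate 2 it was 0.57 RPKM, and Sox6 then lay below 1 RPKM (limma, adjusted p = 0.00331). The row is on chromosome 7 from 122614858 to 123182258 (mm9, minus strand).

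Of group E, Sox9 was low, although it is a defining factor of bile duct epithelium. It was at 1.2, 0.92, 0.64 and 0.61 RPKM in replicates 1 to 4. Replicates 1 and 2 were both higher than replicates 3 and 4, and only replicate 1 exceeded 1 RPKM. The mean of 0.843 ± 0.276 RPKM (SD, n = 4) differed from 1 RPKM by -0.13 ± 0.10 (SE) on the log2(RPKM + 1) scale and was called neither above nor below (limma, adjusted p = 0.25). These values correspond to an estimated 65.2 to 120 reads per library on 3 exons of chromosome 11, from 112643524 to 112649071 (mm9, plus strand). Sox17 exceeded Sox9 by 10.6-fold to 15.4-fold in the 4 libraries, with a mean ratio of 13.3 ± 2.03 (SD, n = 4).

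Of group B, Sox2 was at 0.02 RPKM in replicate 1, an estimated 1.19 reads, and listed at 0 in replicates 2 to 4. It lay below 1 RPKM (limma, adjusted p = 2.29e-07). A count of 3 reads would have given 0.0558, 0.0496 and 0.0372 RPKM in replicates 2 to 4, so lower levels could have been missed in those libraries. The row is on chromosome 3 from 34548927 to 34551382 (mm9, plus strand).

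The order of the members by mean RPKM was Sox4, Sox17, Sox13, Sox11, Sox9, Sox5, Sox6, Sox18, Sox7 and Sox2. Of the 9 pairs of neighbours, 5 differed by more than the SD of their difference and in the same direction in every library. The pairs were set by the mean RPKM of these same libraries, which favours agreement in direction. The count describes the order and is no support for it. On the log2(RPKM + 1) scale Sox4 exceeded Sox17 by 1.42 ± 0.27 (SD, n = 4) and Sox17 exceeded Sox13 by 1.03 ± 0.27. Sox11 exceeded Sox9 by 1.66 ± 0.11, which is the step between the upper and the middle tier, and the ratio of their mean RPKM was 5.74. Sox6 exceeded Sox18 by 0.61 ± 0.25, the step between the middle and the lower tier, and Sox18 exceeded Sox7 by 0.15 ± 0.07. Each of these steps had an exact two-sided sign-flip permutation p of 0.125 (n = 4), the smallest that 4 libraries can give, and 0.225 after Benjamini-Hochberg adjustment over the 9 pairs.

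The other 4 pairs of neighbours did not differ beyond their spread. Sox13 and Sox11 differed by -0.02 ± 0.17 (SD, n = 4) on the log2(RPKM + 1) scale, with Sox13 higher in 2 of 4 libraries (exact sign-flip permutation p = 1). Sox9 exceeded Sox5 by 0.10 ± 0.41 on average and was the higher gene in 3 of 4 libraries (p = 0.625, exact sign-flip permutation). Sox5 exceeded Sox6 in replicate 1 only (-0.02 ± 0.68, exact permutation p = 1). Sox7 and Sox2 were both at or near 0. Without replicate 1, Sox9 exceeded Sox5 by 0.31 and Sox6 exceeded Sox5, with a Sox5 minus Sox6 difference of -0.35, in all of the remaining libraries.

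**Figure D3:**
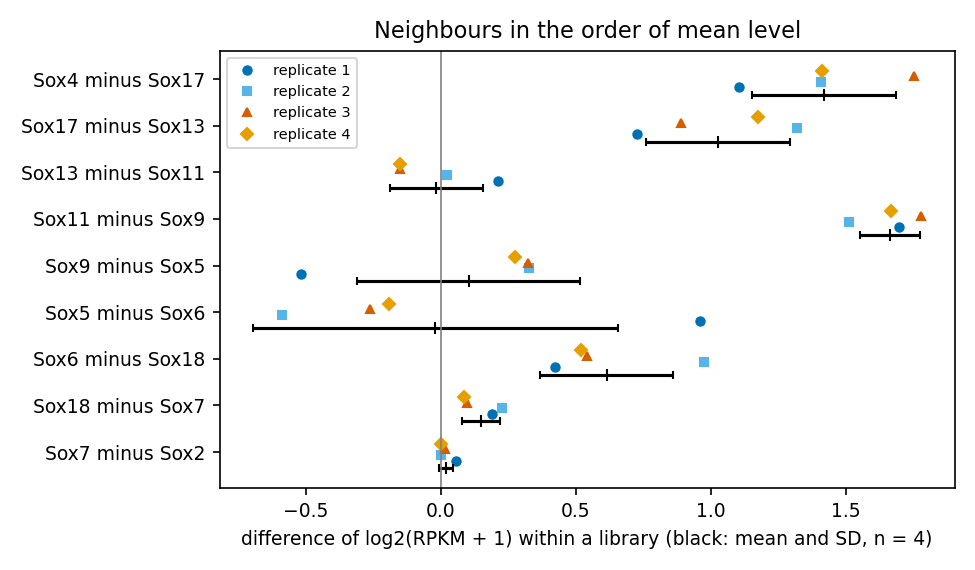
Difference of log2(RPKM + 1) within a library between neighbours in the order of mean level, with one symbol per library and the mean and SD (n = 4) in black below the symbols. The largest step is Sox11 minus Sox9 at 1.66, while Sox13 minus Sox11 and Sox5 minus Sox6 scatter on both sides of 0.

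By group, most of the summed level of the 10 members came from group C. Its share of the summed RPKM of the 10 members was 66.2% ± 5.36 (SD, n = 4), and Sox4 alone took 48.3% to 62.1%. Group F took 20.4% ± 2.20, nearly all of it Sox17. Group D took 17.1% in replicate 1 and 9.84% to 10.5% in replicates 2 to 4. Sox9, the only member of group E, took 1.55% ± 0.341, and Sox2 took 0.034% in replicate 1 and was listed at 0 elsewhere. These shares leave out the other Sox genes, so they do not give the share of a whole group. Left out were Sox12 of group C (mean 5.41 RPKM), Sox8 of group E (3.44 RPKM) and Sox21 of group B (1.225 RPKM), among others. The summed level of the members was 53.5 ± 7.41 RPKM.

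**Figure D4:**
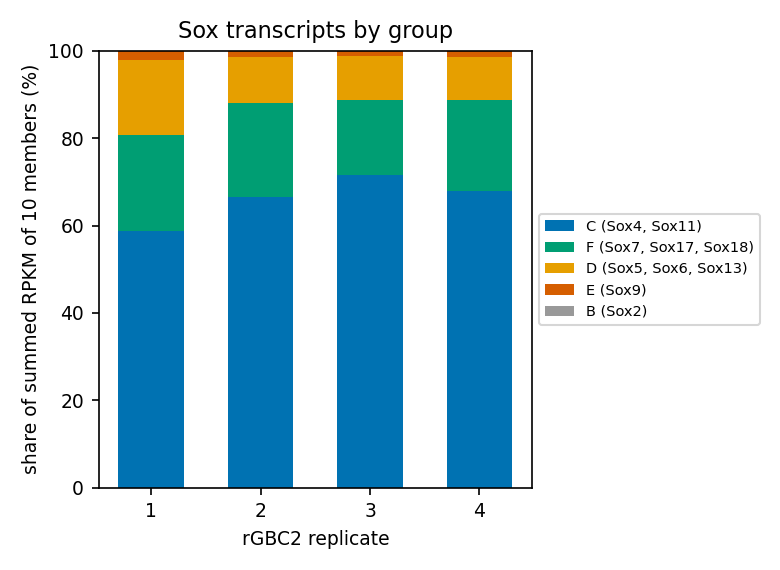
Stacked bars of the share of the summed RPKM of the 10 members taken by each Sox group, from 0 to 100%, in each of the 4 rGBC2 replicates. Group C (Sox4, Sox11) takes 58.8% to 71.5%, and the group D share is largest in replicate 1, at 17.1%.

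The levels also differed between the libraries with and without Y-linked reads. In 6 of 10 members (Sox5, Sox6, Sox9, Sox13, Sox17 and Sox18) both replicates 3 and 4 were lower than both replicates 1 and 2, against 38.5% of all genes tested, and in 0 members were they higher, against 24.2%. Sox17 averaged 12.8 RPKM in replicates 1 and 2 and 8.89 RPKM in replicates 3 and 4, a ratio of 1.44. Sox9 averaged 1.06 and 0.625 RPKM, a ratio of 1.70, and Sox13 averaged 5.92 and 3.84 RPKM, a ratio of 1.54. The median difference on the log2(RPKM + 1) scale was -0.27 over the members and -0.05 over all genes tested. This difference was positively related to transcript GC content across 16659 genes (Spearman 0.476, a description, since genes of a library share its depth and base composition). The members' GC content ran from 45.9% to 60.9%, with a median of 50.7% over all genes. Sox13 and Sox18, at 60.8% and 60.9% GC, were lower in replicates 3 and 4, as were Sox5, Sox6, Sox9 and Sox17 among the members of lower GC, whereas Sox2, Sox4, Sox7 and Sox11 overlapped. The part of GC content in the members' differences was not tested.

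Among the 10 other Sox genes, 2 lay above 1 RPKM, 3 below, 1 passed in neither direction and 4 were listed at 0 in every library. Over all 20377 genes, 11001 lay above, 4423 below and 3458 were listed at 0 throughout. Sox12, the third gene of group C, was at 9.48 RPKM in replicate 1 and at 4.13, 4.09 and 3.94 RPKM in replicates 2 to 4 (limma, adjusted p = 0.00123), with a mean of 5.41 RPKM and of 4.05 RPKM without replicate 1. Sox8, a group E factor related to Sox9, was at 2.84, 2.09, 4.31 and 4.5 RPKM (mean 3.44 ± 1.16, SD, n = 4; limma, adjusted p = 0.00293). Sox8 was thus higher in replicates 3 and 4, the opposite of Sox9, and exceeded Sox9 by 2.27-fold to 7.38-fold in the 4 libraries.

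Sox21, a group B factor with 1.5, 1.45, 1.04 and 0.91 RPKM, was neither above nor below (limma, adjusted p = 0.246). Sox1, a neural group B factor, was below 1 RPKM with 0.7, 0.58, 0.17 and 0.2 RPKM (limma, adjusted p = 0.00464). Sox10, the neural crest factor of group E, had 0.05 and 0.01 RPKM in replicates 3 and 4 and was otherwise listed at 0, and Sox15 was at 0.13, 0.21, 0 and 0.09 RPKM. Sox3, Sox14, Sox30 and Sry were listed at 0 in every library, Sry also in the 2 libraries with Y-linked reads. The 10 members made up 80.0% to 87.8% of the summed RPKM of all 20 Sox genes.

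Genes known to work with these factors, or to mark the cells in which they are high, differed by list. Of 16 duct and biliary genes, the setting in which Sox9 acts, 11 lay above 1 RPKM, a share near the 65.0% of all genes tested, 1 below and 4 in neither direction, with a median of 10.4 RPKM against 6.99 RPKM for all genes tested. Spp1, the secreted protein osteopontin, and Prom1, a membrane protein of ductal epithelium, were highest with Krt7, at 639 ± 465 and 491 ± 362 RPKM (SD, n = 4). Krt7, a ductal keratin, was at 466 to 802 RPKM, while Hes1, a Notch target of the same tissue, was at 0.92, 2.91, 0.74 and 0.87 RPKM in replicates 1 to 4. Of 14 foregut endoderm factors, the setting of Sox17, 8 lay above and 4 below, against 65.0% and 26.1% of all genes tested. Hhex, at 89.4 ± 14.4 RPKM (SD, n = 4), and Foxa2, at 33.1 ± 11.2 RPKM, led the list with Prox1, at 14.7 ± 3.71 RPKM. The 4 below were Mixl1, Gsc and Cer1, which mark the early embryo, and the chemokine receptor Cxcr4.

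Of 15 endothelial genes, the setting of Sox7, Sox17 and Sox18, 1 lay above 1 RPKM, 10 below, 2 in neither direction and 2 were listed at 0. For comparison, 11001 of all 20377 genes lay above, 4423 below and 3458 were listed at 0 in every library. Several defining markers were at or near 0: Cdh5 was at 0.05 RPKM in replicate 2 and listed at 0 elsewhere, Tie1 was at 0.01 RPKM in replicate 1 and listed at 0 elsewhere, Cldn5 was listed at 0 in every library, and Pecam1 was at 0.06 to 0.16 RPKM. Kdr was at 0 to 0.04 RPKM and Tek at 0.05 to 0.25 RPKM. The gene above was Egfl7, a secreted factor, at 68.3 ± 15.7 RPKM (SD, n = 4). The summed level of the list was 47.6 to 81.3 RPKM, most of it from Egfl7. Plvap was at 1.82, 0.98, 0.58 and 0.45 RPKM in replicates 1 to 4, Esam at 0.62 to 1 RPKM and Vwf at 0.24 to 0.63 RPKM, and the remaining genes of the list stayed at or under 0.35 RPKM. The part of endothelial cells in the Sox17 level was not tested.

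Cartilage genes, the setting in which Sox5, Sox6 and Sox9 act together, were below 1 RPKM in 9 of 13 cases and above it in 3. Among all genes tested, 26.1% lay below and 65.0% above. Col2a1, the main cartilage collagen, was at 0.04 to 0.17 RPKM and Acan, aggrecan, at 0.75, 1.54, 4.97 and 4.6 RPKM in replicates 1 to 4. The genes above were Lect1 at 54.1 ± 23.0 RPKM (SD, n = 4), Col11a2 at 2.11 ± 0.403 RPKM, and Col9a2, with 9.89, 0.27, 7.75 and 6.91 RPKM in the order of the replicates, low in replicate 2 alone (limma, adjusted p = 0.0459). Of 12 neuronal genes, among them targets of Sox4 and Sox11, 9 lay above 1 RPKM, against 65.0% of all genes tested, and the list median was 18.2 RPKM. They included Tubb3, a neuronal tubulin, at 139 ± 65.6 RPKM, and Tead2, a Hippo pathway factor reported as a Sox4 and Sox11 target, at 15.3 ± 3.72 RPKM, while Gap43 was at 0.03 to 0.1 RPKM.

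Genes of settings in which Sox2 acts were mostly low. None of 10 pluripotency genes lay above 1 RPKM (limma), 5 lay below, 1 in neither direction and 4 were listed at 0. For comparison with the lists here, 11001 of all 20377 genes lay above, 4423 below and 3458 were listed at 0 in every library. Lin28a, an RNA-binding protein of early development, was the highest of them at 0.8, 0.25, 0.89 and 0.72 RPKM in the 4 libraries, and Esrrb and Utf1 were at 0.05 to 0.13 and 0 to 0.15 RPKM, with Dppa5a among those listed at 0. Of 8 squamous and foregut basal genes, 1 lay above (Sprr1a, a cornified envelope protein, at 18.8 ± 12.5 RPKM) and 6 below, with Trp63, the basal cell regulator, at 0.02 RPKM in replicate 4 and listed at 0 elsewhere. Of 10 neural crest and glial genes, the setting of Sox10, 4 lay above and 3 below, 2 passed neither way and Cdh19 was listed at 0. The highest were Mbp at 96.1 ± 27.0 RPKM (SD, n = 4), Pmp22 at 59.7 ± 5.8 RPKM and Erbb3 at 11.2 ± 1.69 RPKM. In the fibroblast list 1 of 10 genes lay above (Twist1) and 6 lay below, 2 passed neither way and the remaining one was listed at 0. In the leukocyte list 3 of 10 lay above (Csf1r, Coro1a, Cd52), 5 below and 2 were listed at 0, with Ptprc at 0 to 0.01 RPKM. Summed levels ran from 8.22 to 18.9 RPKM for the fibroblast list and from 18.1 to 24.0 RPKM for the leukocyte list, and the part of such cells in the Sox levels was not tested.

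**Figure D5:**
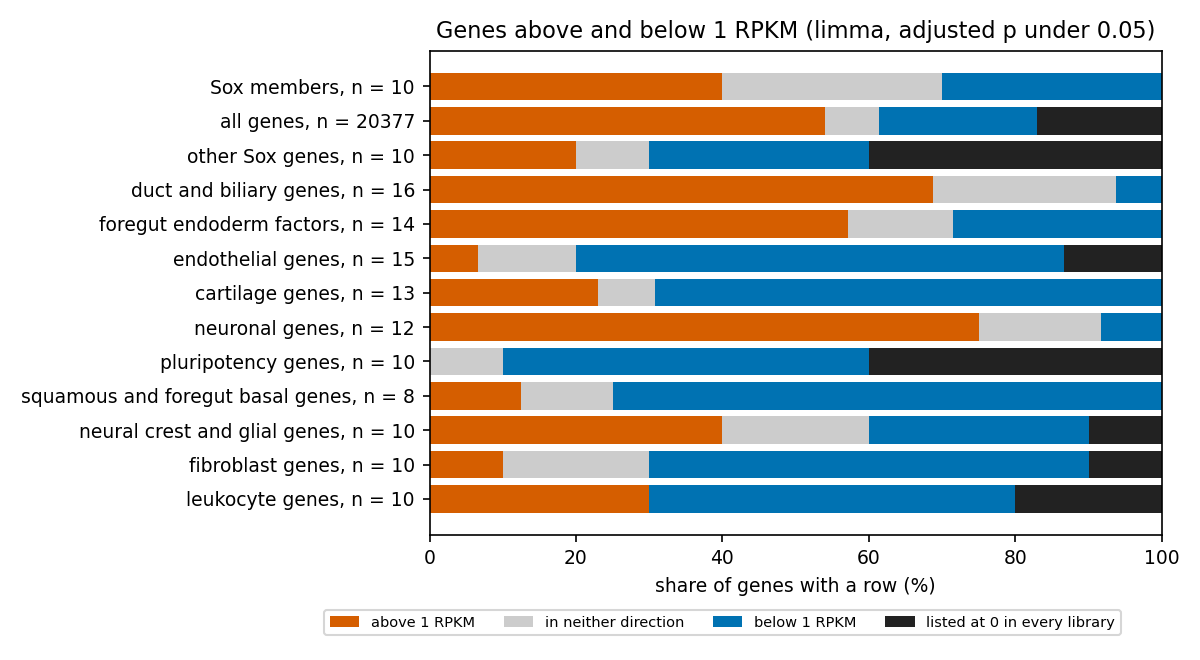
Share of genes above, below or in neither direction from 1 RPKM (limma, adjusted p under 0.05) or listed at 0 in every library, as a percentage of the genes with a row, for the 10 Sox members, all genes and the lists of genes from settings in which Sox factors act. In the neuronal and duct lists 9 of 12 and 11 of 16 genes lie above 1 RPKM. In the endothelial and pluripotency lists 12 of 15 and 9 of 10 lie below it or at 0. Of all 20377 genes, 11001 lie above, 4423 below and 3458 at 0 in every library.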

How the data were processed

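The authors deposited RPKM values rounded to 2 decimals for 20377 genes, each with 1 RefSeq transcript and 1 symbol. The reads went through CASAVA 1.8.2 and Bowtie on build mm9, per the submitters' processing notes. Libraries were made with the TruSeq RNA kit v2, per the labels' protocols. The kit does not mark strand, but no other row of the table overlaps a Sox gene. The counting program is not given in the sources used here. Another 6 columns of values, named for none of the samples, were left unused.

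Levels were tested with limma 3.58.1 (R 4.3.3, mean-variance trend) on log2(RPKM + 1), a pseudocount that understates differences between low genes. The script was tested on simulated data. Transcript lengths, exon numbers and GC content came from GENCODE M21 by RefSeq identifier (19993 genes), with the row's own span as the length of single-exon Sox genes. Depth was estimated from the RPKM of 1 read in 993 olfactory receptor genes (14 to 32 low values per library), so read numbers are approximate. Starts are given 1-based, since 90.2% of the olfactory receptor spans are multiples of 3 when starts are read as 0-based.

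Named genes were all Sox genes, genes from the 3 highest and the lowest of each of 12 lists with 133 genes, and genes a cell type check needs. Not all of these are printed. Others named (Hes1, Tead2, Col2a1, Col11a2 and the foregut genes below 1 RPKM) were chosen after their values were seen. The members and lists were chosen with earlier results of these data known. The list for the label check (Ins1, Ins2, Iapp, Slc30a8 and G6pc2) had 5 of 5 genes above 1 RPKM, against 65.0% of all genes tested. Since the cells were sorted on an Ins1 reporter, this count is no support for the labels. Alternatives were another pseudocount, filter, library scaling, variance model and reference level, and leaving out each library.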

Additional observations from a re-analysis of the deposited data

Results flagged for a closer look

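In 5 of 19 sets of 4 values tested (15 Sox genes and 4 group shares, each above 0 in at least 2 libraries), 1 library stood far from the other 3. Sets of 4 independent, normally distributed values would give about 1 in 20. That rate need not hold here, because replicates 3 and 4 may share a source and the group shares repeat genes. Sox5 (2.15 RPKM), Sox12 (9.48 RPKM) and Sox7 (0.06 RPKM) stood apart in replicate 1, and so did the group D share (17.1%), which holds Sox5 and so repeats it. Sox6 stood apart in replicate 2 (1.3 RPKM). The value of Sox7 rests on an estimated 4.8 reads. Sox5 and Sox12 in replicate 1 correspond to an estimated 132 and 1020 reads.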

How the results depend on the processing

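The 4 members above 1 RPKM numbered 4 with a pseudocount of 0.1, with libraries scaled to a common median, without the variance trend, and without any 1 replicate, and 5 against 0.5 RPKM, where Sox9 passed. Of 617 recomputed values, 583 kept their direction and their side of the threshold or stayed near the reported value. Testing only genes with a mean of at least 0.1 RPKM left fewer genes below by construction: 1 member, 1889 of all genes, and 0 foregut, 4 endothelial, 3 cartilage, 0 neuronal, 0 pluripotency, 2 squamous, 1 fibroblast and 2 leukocyte genes, but 2 duct genes. Duct genes below numbered 2 with a pseudocount of 0.1 and with libraries scaled to a common median, 0 against 0.5 RPKM, and 1 to 3 leaving out 1 replicate (3 without replicate 2). Cartilage genes above, reported as 3, numbered 2 with a pseudocount of 0.1, without the variance trend, and without replicate 3 or replicate 4. Against 0.5 RPKM, 2 endothelial and 3 fibroblast genes lay above and 1 glial gene below. There Sox5, Sox6 and Sox9 changed sign, at 0.18, 0.20 and 0.28 (log2), as the lower reference implies. Leaving out 1 replicate, Sox13 minus Sox11 ran from -0.0931 to 0.0281 and changed sign without replicate 3 or 4, and Sox5 minus Sox6 ran from -0.347 to 0.17 and changed sign without replicate 2, 3 or 4. With replicates 3 and 4 averaged as 1 library, an alternative chosen after seeing the data, these differences were 0.028 and 0.0481, with no count of calls moved by over 1.5 times. No paired analysis was possible because the libraries form 1 group, so no groups with shared replicate numbers were compared.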
